A study of Mus with 35 samples.

Results

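The 7 adrenergic receptor genes Adra1a, Adra1b, Adra1d, Adra2a, Adra2b, Adra2c and Adrb1 were followed across 35 mouse brain RNA libraries. They were found by symbol among the 55573 rows of the deposited expression table, and all 7 had a row of their own. The family was chosen by a measured value, the higher Adra1b of mutants than of wild-type (WT) mice under the control treatment. That comparison is therefore given as a description with no test, for every member. Other receptors of the family were not analysed here.

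The mice were male C57BL/6J animals hemizygous for a substitution in Hnrnph2 (P209L or R206W), an X-linked gene for an RNA-binding protein, and their WT littermates. Each received 30 µg of an antisense oligonucleotide (ASO) into the cerebral ventricles 2 to 4 days after birth, either one against Hnrnph2 or a control ASO, and brain RNA was taken at 3 or 8 weeks of age. At 8 weeks, the groups were P209L with the Hnrnph2 ASO, P209L with the control ASO, WT with the Hnrnph2 ASO and WT with the control ASO. The same 4 groups were made at 3 weeks in a P209L cohort and in an R206W cohort. Groups held 3 libraries each, apart from the 3-week P209L group given the Hnrnph2 ASO, which held 2. All mice compared had been injected.

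Adrenergic receptors are G-protein-coupled receptors for noradrenaline and adrenaline. In the brain noradrenaline comes mainly from the locus coeruleus and other brainstem nuclei. Alpha-1 receptors couple to Gq and phospholipase C, alpha-2 receptors couple to Gi and Go and also act on noradrenergic terminals as autoreceptors, and beta receptors couple to Gs and adenylyl cyclase.

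Values are TPM, transcript abundances in which reads are corrected for transcript length and every library is scaled to the same total. Levels are therefore shares of a library, and a change in a few abundant genes shifts all others between libraries. TPM keeps no read depth, so counting error could not be given. Hnrnph2 itself was at 6.95 to 26.7 TPM in the 17 libraries with the Hnrnph2 ASO and at 88.20 to 116.8 TPM in the 18 with the control ASO, with no overlap. With the Hnrnph2 ASO it was at 6.95 to 11.6 TPM in P209L and 12 to 20.6 TPM in WT at 8 weeks. At 3 weeks it was at 12.8 to 15 TPM in P209L and 16.4 to 19.3 TPM in WT. In the R206W cohort it was at 19.4 to 23.9 TPM in R206W and 23.3 to 26.7 TPM in WT. The level left by the ASO thus differed between genotypes and cohorts. The labels name whole brain in one place and cortex in another. Markers of cerebellar neurons were present in every library (Pcp2 of Purkinje cells at 165.07 to 521.04 TPM), as were those of cortical excitatory neurons (Slc17a7 at 535.53 to 849.41 TPM). In such bulk tissue, fewer cells of a type and less RNA per cell cannot be told apart. Genes of catecholamine neurons were also detected, with Th, the first enzyme of catecholamine synthesis, at 10.06 to 25.49 TPM and Dbh, the enzyme that makes noradrenaline from dopamine, at 0.34 to 4.46 TPM. Among libraries of the same group, replicate 3 of WT with the Hnrnph2 ASO at 3 weeks in the P209L cohort lay farthest from the others over all genes, with a root mean square log2 distance of 0.411. Replicates 2 and 3 of WT with the control ASO at 8 weeks were at 0.383 and 0.366. Names in the titles share stems, and no stem occurred with both ASOs in any cohort, so stem and ASO cannot be told apart. In the R206W cohort each ASO had 2 stems. Stems with both genotypes numbered 1 in the 8-week P209L cohort, 2 in the 3-week P209L cohort and 3 in the R206W cohort. Pairing by stem was neither used nor tested.

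Over the 35 libraries Adra2a had the highest mean level, 15.6 TPM, and ranged between 10.58 and 20.31 TPM. Adra1b followed at a mean of 14.7 TPM and Adra1d at 14.6 TPM, with Adrb1 at 12.8 TPM and Adra2c at 9.22 TPM. Adra1a was lower, at a mean of 4.76 TPM. Adra2b was the lowest, with a mean of 0.83 TPM and values between 0.54 and 1.15 TPM, and it reached 1 TPM in 7 of the 35 libraries. Adra1b varied most between libraries relative to its mean, with a coefficient of variation of 31.7%, followed by Adra1a at 27.9%. The other members lay between 14% for Adra2c and 19.6% for Adra2b. The genes also differ in their genomic extent on mm10 (RefSeq, GRCm38): Adra1a (chromosome 14, 66635251 to 66771240) and Adra1b (chromosome 11, 43774605 to 43901250) span 136 and 127 kb. Adra2a (chromosome 19, 54045259 to 54048982), Adra2b (chromosome 2, 127363179 to 127367221), Adra2c (chromosome 5, 35278566 to 35281763) and Adrb1 (chromosome 19, 56722117 to 56725150) span 3.03 to 4.04 kb. Adra1d (chromosome 2, 131545357 to 131562497) spans 17.1 kb.

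Adra1b, a Gq-coupled receptor found on neurons of cortex and thalamus, was the member with the widest range between groups. In the 8-week P209L cohort it was at 10.69, 12.15 and 14.36 TPM in P209L with the Hnrnph2 ASO and at 18.09, 17.69 and 19.93 TPM in P209L with the control ASO. In WT of that cohort it was at 9.19, 12.49 and 12.34 TPM with the Hnrnph2 ASO and at 9.80, 8.01 and 13.68 TPM with the control ASO. The 3 P209L libraries with the control ASO therefore lay above the other 9, which overlapped one another. At 3 weeks the P209L libraries had 14.90 and 16.68 TPM with the Hnrnph2 ASO and 25.93, 24.00 and 24.70 TPM with the control ASO. WT of the same cohort had 14.00, 15.33 and 13.49 TPM with the Hnrnph2 ASO and 15.67, 15.07 and 14.22 TPM with the control ASO. Again mutants with the control ASO stood apart, and the other 3 groups overlapped in range. In the R206W cohort Adra1b was at 13.81, 10.59 and 13.14 TPM in R206W with the Hnrnph2 ASO and at 20.68, 16.75 and 22.80 TPM in R206W with the control ASO. Its WT libraries had 10.45, 11.86 and 11.26 TPM with the Hnrnph2 ASO and 9.72, 8.74 and 11.32 TPM with the control ASO. The same pattern was thus present with the other substitution.

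**Figure D1:**
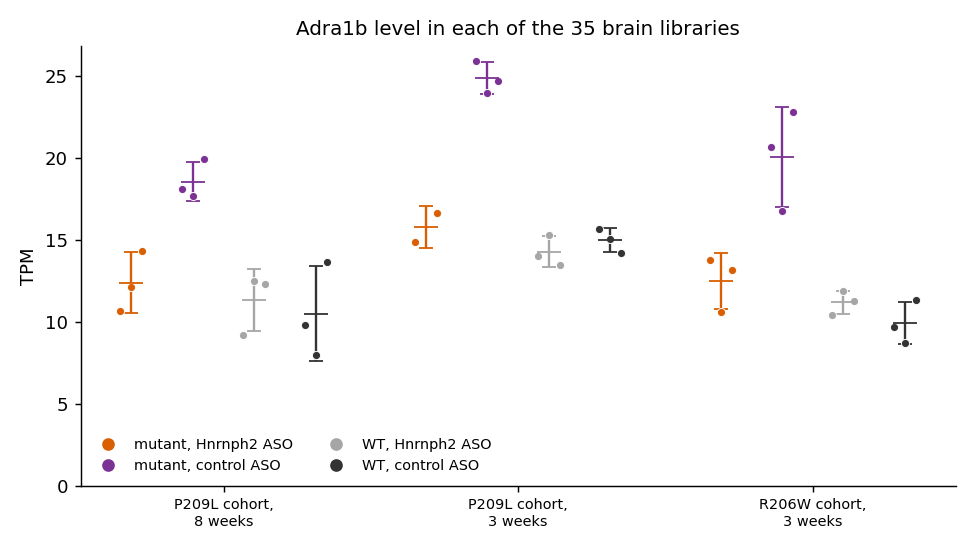
Adra1b in TPM (vertical axis) in each library, by cohort and group; points are libraries, and horizontal lines with bars are the group mean and its SD (n = 3, or 2 for P209L with the Hnrnph2 ASO at 3 weeks). The 9 libraries of mutants with the control ASO (16.75 to 25.93 TPM) lie above every other library of their own cohort.

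The 12 groups were ordered by their mean Adra1b level. P209L with the control ASO at 3 weeks came highest (24.9 ± 0.977 TPM, SD, n = 3), and its range did not overlap with that of the next group, R206W with the control ASO (20.1 ± 3.07 TPM, n = 3). P209L with the control ASO at 8 weeks was the third (18.6 ± 1.19 TPM, n = 3), and its range overlapped with that of the R206W group above it but not with that of the group beneath it. All groups from there down to the lowest, WT with the control ASO in the R206W cohort (9.93 ± 1.3 TPM, n = 3), overlapped with their neighbours in this order.

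Between mutants and WT with the control ASO, the values that led to the choice of the family, Adra1b averaged 21.2 TPM in mutants and 11.8 TPM in WT (n = 9 each), a ratio of 1.79. The log2 fold change on the log2(TPM + 1) scale was 0.80 in the 8-week P209L cohort, 0.70 in the 3-week P209L cohort and 0.94 in the R206W cohort. Its average was 0.81 with a standard error (SE) of 0.081. The share of genes called in this comparison over the whole table was 4.28% on average over the cohorts, and 0.17%, 0.133% and 0.133% within those 3 cohorts. Nothing is read from the members' calls here. For the other members the average log2 fold changes were 0.24 for Adra2a, 0.19 for Adra1a, 0.12 for Adra2c, 0.10 for Adrb1 and 0.07 for Adra1d, and Adra2b differed by 0.08. All 7 averages were above 0. With the mean level of the cerebellar neuron markers as a covariate, Adra1d (-0.11) and Adrb1 (-0.04) were below 0, and the Adra1b difference was 0.69. Markers of cerebellar neurons moved with this comparison: 5 of 8 were called lower and 1 higher in mutants, with summed levels of 666 to 1100 TPM in mutants and 586 to 1450 TPM in WT. Of the oligodendrocyte markers 3 of 6 were called lower (2690 to 6890 TPM in mutants and 3140 to 7850 TPM in WT). Of the pericyte and smooth muscle markers 2 of 5 were called lower (122 to 164 TPM in mutants and 149 to 173 TPM in WT). The part of these 2 sets was not tested.

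With the Hnrnph2 ASO, mutants and WT were compared in libraries that did not enter the control ASO comparison that led to the family. Members and tests were still chosen with earlier results from these data known. None of the 6 receptors with a mean of at least 1 TPM passed the test (limma, Benjamini-Hochberg over all genes, called at an adjusted p under 0.05), where 0.67% of all genes tested did. By unadjusted p, 1 of the 6 was under 0.05, as were 12.4% of all genes, a share near that of the receptors. The calls over all genes moved with single libraries, from 21 to 303 on leaving out 1, against 111. Adra1b averaged 13.3 ± 2.1 TPM in mutants and 12.3 ± 1.87 TPM in WT (SD, n = 8 and 9). Its log2 fold change was 0.13 (SE 0.084, limma adjusted p = 0.551), with a 95% interval of -0.04 to 0.31. Standard deviations beside these averages span the cohorts and include the differences between them. The Adra1b values in the 3 cohorts were 0.12, 0.14 and 0.14. Of the cerebellar markers 2 of 8 were called lower in mutants with the Hnrnph2 ASO (summed level 501 to 1130 TPM in mutants and 630 to 1210 TPM in WT). With the mean cerebellar marker level as a covariate the average Adra1b value was 0.05 (SE 0.082).

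The receptor with an unadjusted p under 0.05 was Adra2a, the alpha-2 subtype known as an autoreceptor on noradrenergic neurons and as a postsynaptic receptor in cortex. With the Hnrnph2 ASO it was at 14.05, 12.32 and 13.90 TPM in P209L and at 13.48, 13.61 and 12.39 TPM in WT at 8 weeks. At 3 weeks it was at 19.42 and 20.31 TPM in P209L, against 16.64, 14.10 and 13.57 TPM in WT of the same cohort. In the R206W cohort it was at 17.16, 16.48 and 17.69 TPM in R206W, against 15.16, 16.77 and 15.28 TPM in WT. The groups were apart in the 3-week P209L cohort and overlapped in the other two. The mean was 16.4 TPM in mutants and 14.6 TPM in WT, and the average log2 fold change of 0.18 (SE 0.055) did not pass (limma adjusted p = 0.123, higher in mutants in 3 of 3 cohorts). A two-sided exact permutation test within cohorts, planned only for receptors under 1 TPM, gave p = 0.0127, unadjusted over the 7 receptors. For the other receptors the same permutation test gave p between 0.0843 (Adra1b) and 0.586 (Adra2c). The difference was 0.41 in the 3-week P209L cohort (limma adjusted p = 0.28). The effect at 8 weeks minus that at 3 weeks in the P209L cohorts was -0.38 (SE 0.136, unadjusted p = 0.00913), which did not pass after adjustment over all genes (limma, adjusted p = 0.473). Within single cohorts no receptor was called with the Hnrnph2 ASO, against 0% of all genes in each P209L cohort and 0.00606% in the R206W cohort.

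In mutants, the Hnrnph2 ASO was compared with the control ASO. This comparison shares the mutant control libraries with the one that led to the choice of Adra1b, and choosing a gene that is high in them favours a lower value with the Hnrnph2 ASO. The Adra1b values are therefore a description with no test. Adra1b averaged 13.3 ± 2.1 TPM with the Hnrnph2 ASO and 21.2 ± 3.33 TPM with the control ASO (SD, n = 8 and 9), and all libraries with the Hnrnph2 ASO lay below all libraries with the control ASO in each of the 3 cohorts. The share of all genes that separated in this way was not counted. The average log2 fold change was -0.61 (SE 0.084). It was -0.55 in the 8-week P209L cohort, -0.63 in the 3-week P209L cohort and -0.64 in the R206W cohort. None of the other 5 tested receptors was called (limma), where 2.5% of all genes were called and 1.31% were called lower. None of the 5 had an unadjusted p under 0.05, where 13.7% of all genes did. None of the 5 was called within a cohort, against 0.0908% of all genes at 8 weeks, 0.0969% at 3 weeks and 0.097% in the R206W cohort. Of the cerebellar markers 1 of 8 was called lower with the Hnrnph2 ASO in mutants (summed level 501 to 1130 TPM with the Hnrnph2 ASO and 666 to 1100 TPM with the control ASO), and none of 8 cortical markers was called. Of the microglia markers 1 of 5 was called higher (183 to 273 TPM with the Hnrnph2 ASO and 159 to 217 TPM with the control ASO, a mean sum 19.2% higher), as was 1 of 6 interneuron markers (898 to 1010 TPM with the Hnrnph2 ASO and 862 to 985 TPM with the control ASO). The part of microglia and interneurons was not tested. With the mean cerebellar marker level as a covariate the Adra1b value was again -0.61.

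The make-up of the alpha-1 receptor RNA differed between these groups. Of the summed TPM of Adra1a, Adra1b and Adra1d, Adra1b made up 37.8% ± 2.37 in P209L with the Hnrnph2 ASO and 47.4% ± 3.36 in P209L with the control ASO at 8 weeks (SD, n = 3 each). At 3 weeks the shares were 40.5% ± 1.34 in P209L with the Hnrnph2 ASO (n = 2) and 53% ± 1.52 in P209L with the control ASO (n = 3). In the R206W cohort they were 42.5% ± 3.85 with the Hnrnph2 ASO and 55.6% ± 3.1 with the control ASO. Adra1d was the largest component in every group except mutants with the control ASO, where Adra1b was. The WT shares of Adra1b lay between 35.2% and 42% as group means. These shares rest on the same Adra1b values and are no separate evidence.

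**Figure D2:**
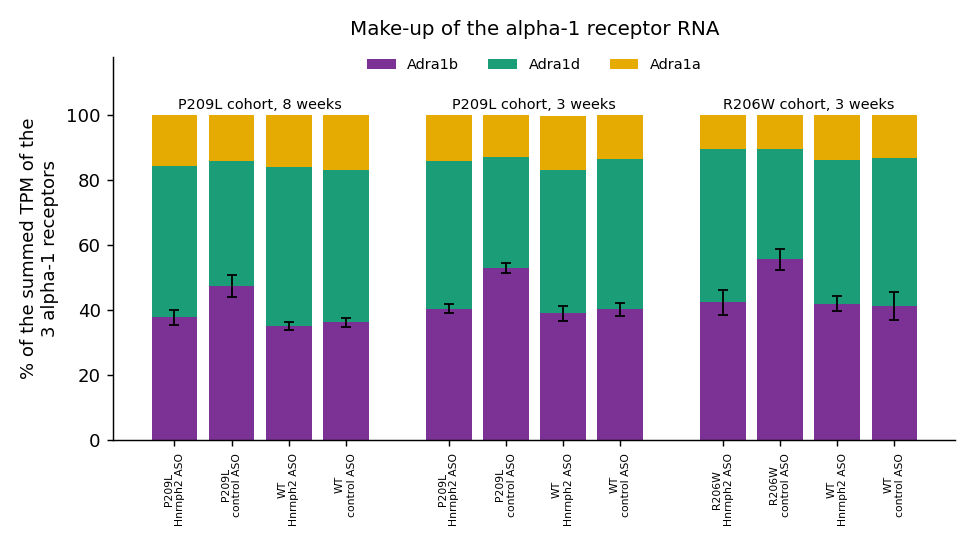
Mean share of each receptor (vertical axis, percent) in the summed TPM of the 3 alpha-1 receptors, by group; bars are stacked group means and error bars are the SD of the Adra1b share. Adra1b makes up 47.4% to 55.6% in mutants with the control ASO and 35.2% to 42.5% in the other groups.

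In WT mice the Hnrnph2 ASO changed none of the 6 tested receptors past the threshold, where 0.187% of all genes were called. None of the 6 had an unadjusted p under 0.05 in limma, where 9.49% of all genes did. This comparison shares the WT control libraries with the one that led to the choice of Adra1b. Choosing a gene that is low in them favours a higher value with the Hnrnph2 ASO. The Adra1b test here is therefore not independent of that choice. Adra1b averaged 12.3 ± 1.87 TPM with the Hnrnph2 ASO and 11.8 ± 2.9 TPM with the control ASO (SD, n = 9 each). Its log2 fold change of 0.07 (SE 0.081, limma adjusted p = 0.817) had a 95% interval of -0.09 to 0.24. The value nearest to the threshold was that of Adra2c, at 0.10 (SE 0.057, limma adjusted p = 0.588). Within cohorts no receptor was called, against 0.0182% of genes in the 8-week P209L cohort and 0.0121% in each of the 3-week cohorts. The difference between the ASO effect in mutants and that in WT was -0.68 for Adra1b and between -0.30 and 0.03 for the other tested receptors, given as a description because it contains the comparison that chose the family.

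The other alpha-1 receptors had no called change with the ASO in mutants. Adra1a, which like Adra1b is expressed in neurons of many forebrain regions, averaged 4.48 ± 1.36 TPM with the Hnrnph2 ASO and 5.11 ± 1.36 TPM with the control ASO in mutants (SD, n = 8 and 9). Its log2 fold change was -0.13 (SE 0.114, limma adjusted p = 0.68). Adra1d, a subtype found in cortex and hippocampus, averaged 15.3 ± 2 TPM with the Hnrnph2 ASO and 14.5 ± 2.25 TPM with the control ASO, a log2 fold change of 0.10 (SE 0.099, limma adjusted p = 0.733). Its 95% interval was -0.10 to 0.30. In mutants against WT with the Hnrnph2 ASO, Adra1a differed by -0.11 and Adra1d by 0.10, neither past the test (limma adjusted p = 0.75 and 0.736).

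**Figure D3:**
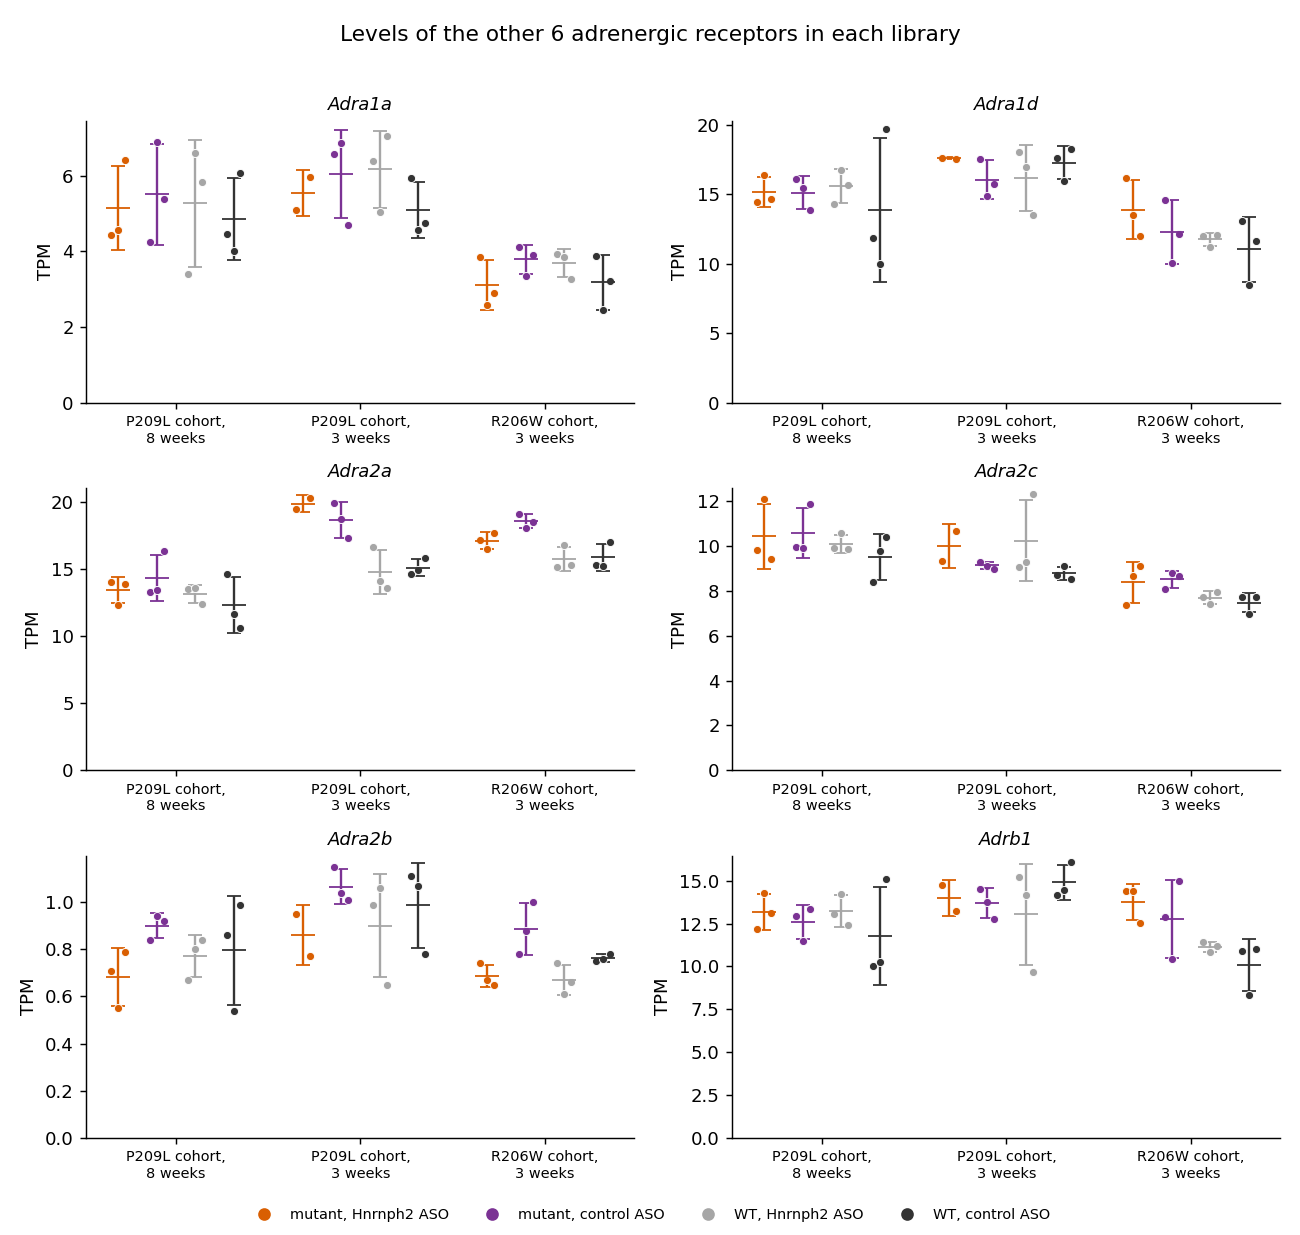
TPM (vertical axis) of the other 6 receptors in each library, by cohort and group; points are libraries and lines with bars are group means and SDs (n = 3, or 2 for P209L with the Hnrnph2 ASO at 3 weeks). Adra2b lies at or under 1.15 TPM throughout, and Adra2a is lower at 8 than at 3 weeks.

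Among the alpha-2 receptors, Adra2a and Adra2c showed no called response to the ASO in mutants. Adra2a averaged 16.4 ± 2.8 TPM with the Hnrnph2 ASO and 17.2 ± 2.41 TPM with the control ASO (log2 fold change -0.04, SE 0.055, limma adjusted p = 0.842). Adra2c, which is abundant in striatum, averaged 9.56 ± 1.4 TPM with the Hnrnph2 ASO and 9.41 ± 1.09 TPM with the control ASO (0.02, SE 0.059, limma adjusted p = 0.906). Adrb1, the main beta subtype of forebrain neurons, averaged 13.6 ± 0.96 TPM with the Hnrnph2 ASO and 13 ± 1.41 TPM with the control ASO (0.07, SE 0.085, limma adjusted p = 0.794). With the Hnrnph2 ASO, mutants differed from WT by 0.04 in Adra2c and 0.13 in Adrb1, neither past the test (limma adjusted p = 0.837 and 0.562).

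Adra2b, an alpha-2 subtype that in the rodent brain is found mainly in thalamus, did not reach the minimum mean of 1 TPM and was tested alone. In P209L mice at 8 weeks it was at 0.71, 0.55 and 0.79 TPM with the Hnrnph2 ASO and at 0.84, 0.94 and 0.92 TPM with the control ASO. At 3 weeks the P209L libraries had 0.95 and 0.77 TPM with the Hnrnph2 ASO and 1.15, 1.04 and 1.01 TPM with the control ASO. In R206W mice it was at 0.74, 0.67 and 0.65 TPM with the Hnrnph2 ASO and at 0.78, 0.88 and 1.00 TPM with the control ASO. The groups did not overlap in any of the 3 cohorts, and the share of all genes that separated likewise was not counted. The permutation test below restates this separation. The average difference on the log2(TPM + 1) scale was -0.16, and the two-sided exact permutation test gave p = 2.50e-04 of 4000 arrangements, the smallest it can give, unadjusted over 4 comparisons of this gene. On the linear scale the mean was 0.729 ± 0.117 TPM with the Hnrnph2 ASO and 0.951 ± 0.112 TPM with the control ASO (SD, n = 8 and 9), which is 23.4% lower. When genes down to a mean of 0.1 TPM were included in the fit across all genes, the same difference did not pass (limma, adjusted p = 0.134). In WT the Adra2b difference between ASOs was -0.05 (two-sided exact permutation p = 0.345). Between mutants and WT with the Hnrnph2 ASO it was -0.03 (two-sided exact permutation p = 0.585). With the control ASO, Adra2b differed by 0.08 between mutants and WT, in the libraries that this comparison shares. How many reads lie behind values at this level is unknown. Markers of thalamic neurons had no called member in the comparison of ASOs in mutants (0 of 5; summed level 91.9 to 162 TPM with the Hnrnph2 ASO and 97.9 to 165 TPM with the control ASO).

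**Figure D4:**
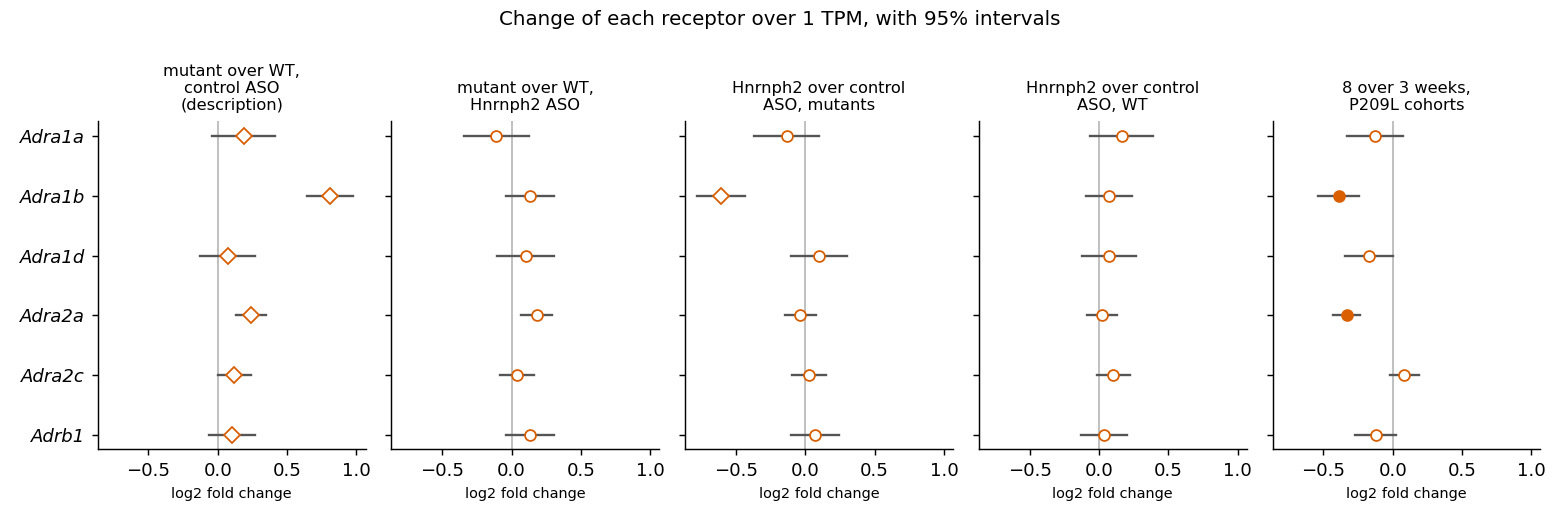
Average log2 fold change (horizontal axes, log2(TPM + 1) scale) of the 6 receptors with a mean of at least 1 TPM, with 95% intervals, in 5 comparisons; filled circles passed the limma test, open circles did not, and diamonds (the leftmost panel, and Adra1b between ASOs in mutants) are a description with no test. Adra1b is at -0.61 between ASOs in mutants, and Adra1b and Adra2a are lower at 8 than at 3 weeks.

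The 2 ages were compared within genotype and ASO in the P209L cohorts, a comparison that the choice of the family did not use. Age and cohort cannot be told apart in it. Adra1b and Adra2a were lower at 8 weeks, and the other 4 tested members were not called. Of all genes tested, 42.1% were called in this comparison and 26.6% were called lower, so a count of 2 of 6 members is near what all genes showed. Adra1b averaged 13.2 ± 3.74 TPM at 8 weeks and 17.6 ± 4.75 TPM at 3 weeks (SD over 12 and 11 libraries of 4 groups each), a fall of 0.39 on the log2 scale (SE 0.072, limma adjusted p = 9.33e-05). In each of the 4 pairs of groups, all 8-week libraries lay below all 3-week libraries. The share of all genes without overlap in these pairs was not counted, which holds for Adra2a below as well. Adra2a averaged 13.3 ± 1.47 TPM at 8 weeks and 16.8 ± 2.45 TPM at 3 weeks, a fall of 0.33 (SE 0.047, limma adjusted p = 2.31e-06), with no overlap in 2 of the 4 pairs. In WT with the control ASO it was at 14.64, 11.67 and 10.58 TPM at 8 weeks and at 14.60, 14.89 and 15.79 TPM at 3 weeks. In P209L with the control ASO it was at 13.30, 13.41 and 16.30 TPM at 8 weeks and at 19.92, 18.74 and 17.27 TPM at 3 weeks. The age effect of Adra2a in P209L minus that in WT was -0.23 (SE 0.094, unadjusted p = 0.0215), which was not called (limma, adjusted p = 0.455). Over the 11 differences between cohorts, genotypes and ASOs that were tested, none called any member, and 0% of all genes were called in any of them. At an unadjusted p under 0.05, 3 of the 66 member tests passed, and the share of all genes that did so was not counted.

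Adra2c averaged 10.2 TPM at 8 weeks and 9.5 TPM at 3 weeks, a log2 fold change of 0.08 (SE 0.051, limma adjusted p = 0.19). Adra1d differed by -0.17 (SE 0.085, adjusted p = 0.111), Adrb1 by -0.12 (SE 0.072, adjusted p = 0.179) and Adra1a by -0.13 (SE 0.098, adjusted p = 0.314), all from limma. Libraries decided some of these: without replicate 3 of WT with the control ASO at 8 weeks, Adra1d (-0.24, limma adjusted p = 0.00718) and Adrb1 (-0.17, adjusted p = 0.041) were called lower. Without replicate 3 of WT with the Hnrnph2 ASO in the 3-week P209L cohort, Adrb1 (-0.17, limma adjusted p = 0.0392) was called lower and Adra2c (0.12, adjusted p = 0.0426) higher. In the first of these libraries Adra1d was at 19.74 TPM, against 11.86 and 10.01 TPM in the other two of its group. Adrb1 there was at 15.10 TPM, against 10 and 10.23 TPM. Adra2b was 18.1% lower at 8 weeks (0.787 ± 0.145 TPM at 8 weeks and 0.962 ± 0.16 TPM at 3 weeks, SD, n = 12 and 11), with a two-sided exact permutation p of 0.0128. Several cell type markers moved with age. All 6 oligodendrocyte markers were lower at 8 weeks (summed level 2650 to 4030 TPM at 8 weeks and 5630 to 7850 TPM at 3 weeks), as were 5 of 8 markers of cortical excitatory neurons, with 1 higher (1720 to 2250 TPM at 8 weeks and 1920 to 2440 TPM at 3 weeks). Of the thalamic markers 3 of 5 were lower (79.8 to 162 TPM at 8 weeks and 136 to 181 TPM at 3 weeks, a mean sum 19.2% lower). All 3 markers of oligodendrocyte precursors, 3 of 6 of interneurons and 3 of 6 of astrocytes were lower too. Of the pericyte and smooth muscle markers, 3 of 5 were higher and 1 was lower. The part of these cell types in the receptor changes was not tested.

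The WT libraries of the R206W and P209L cohorts at 3 weeks share age and genotype, and they differed in several receptors. This comparison was added after the values had been seen. In the R206W cohort 5 of the 6 tested receptors were lower, where 27.1% of all genes were called and 16.2% were called lower. Adra1a averaged 3.44 ± 0.582 TPM in the R206W cohort and 5.62 ± 0.99 TPM in the P209L cohort (SD, n = 6 each), a log2 fold change of -0.58 (SE 0.135, limma adjusted p = 0.00405). The values were -0.52 for Adra1d, -0.44 for Adra1b, -0.36 for Adrb1 and -0.28 for Adra2c (limma adjusted p = 0.00322, 0.00321, 0.0111 and 0.00555). Adra2a was not called, at 15.8 ± 0.852 TPM in the R206W cohort and 14.9 ± 1.12 TPM in the P209L cohort (0.08, limma adjusted p = 0.384). Regional and other cell type markers moved with it. All 8 cerebellar neuron markers were higher in the R206W cohort (summed level 1040 to 1450 TPM, against 630 to 848 TPM in the P209L cohort), all 5 thalamic markers were lower (95.5 to 122 TPM in the R206W cohort against 136 to 181 TPM), and 4 of 7 striatal markers were lower (482 to 817 TPM against 756 to 998 TPM). Of the interneuron markers 4 of 6 were lower and 1 higher, and of the cortical markers 3 of 8 were lower and 1 higher. Microglia had 2 of 5 markers lower (a mean sum 20.2% lower). A few markers of astrocytes, oligodendrocytes and their precursors were called too. The part of these non-cerebellar cell types was not tested. With the mean cerebellar marker level as a covariate no receptor was called, and 1 gene was called over the whole table. Adra1a kept a value of -0.51 with a wider SE of 0.23, while Adra2c was at -0.14, Adra1b at -0.12, Adra1d at -0.03 and Adrb1 at 0.02. The cerebellar marker sums of the 2 cohorts do not overlap, so cohort and cerebellar marker level cannot be told apart here. The mutation and ASO comparisons were made within cohorts, and cerebellar markers were called in some of them as well.

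The genes around the receptors were taken from 6 lists (noradrenaline synthesis, transport and breakdown; alpha-1, alpha-2 and beta coupling; receptor desensitisation; other amine receptors), with 73 tested members in all. With the Hnrnph2 ASO no list member was called between mutants and WT, and none was called between ASOs in WT. Between the ASOs in mutants, 3 of the 73 were called, all lower, beside 1.31% of all genes called lower. Grk5, a kinase that phosphorylates activated G-protein-coupled receptors, averaged 7.66 ± 0.93 TPM with the Hnrnph2 ASO and 9.99 ± 1.21 TPM with the control ASO (log2 fold change -0.33, SE 0.07, limma adjusted p = 0.00631). Prkaca, a catalytic subunit of protein kinase A, averaged 181 ± 15.6 TPM with the Hnrnph2 ASO and 202 ± 15.3 TPM with the control ASO (-0.15, limma adjusted p = 0.017). Of the 8 tested genes of noradrenaline synthesis, transport and breakdown, 1 was called lower between ASOs in mutants and none in WT. The called gene is not reported here by name. Th, Dbh and the vesicular transporter Slc18a2 were not called between ASOs in either genotype. None of the 11 tested genes of alpha-1 coupling and none of the 8 of alpha-2 coupling was called between ASOs in mutants, where the median log2 fold change was -0.017 and -0.003, against 0.002 for all genes. Between mutants and WT with the control ASO, given as a description because this comparison led to the family, 5 of the 73 passed the threshold, all higher in mutants, beside 2.55% of all genes called higher. These were Grk5 at 0.42, Htr2c, a Gq-coupled serotonin receptor, at 0.40, Prkaca at 0.19, Gna11, the G-protein subunit that acts beside Gnaq downstream of alpha-1 receptors, at 0.18, and Slc22a3, a transporter that takes up monoamines outside neurons, at 0.18. Grk5 and Prkaca thus moved in both comparisons, which share the mutant control libraries.

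With age the lists changed more widely: 8 members were higher and 25 lower at 8 weeks, of 73, beside 42.1% called among all genes tested. Of the list for noradrenaline supply, 2 were higher and 2 lower. Maob, a monoamine oxidase, averaged 17.7 ± 1.53 TPM at 8 weeks and 13.5 ± 1.39 TPM at 3 weeks (log2 fold change 0.38, limma adjusted p = 5.61e-07). Dbh averaged 1.9 ± 0.595 TPM at 8 weeks and 2.82 ± 0.717 TPM at 3 weeks (-0.43, limma adjusted p = 0.0076). Slc22a3 differed by -0.16 (limma adjusted p = 0.00734). Of alpha-1 coupling, 2 of 11 were higher and 4 lower. The inositol trisphosphate receptor gene Itpr2 averaged 4.68 ± 0.534 TPM at 8 weeks and 8.55 ± 1.39 TPM at 3 weeks (-0.75, limma adjusted p = 1.65e-09), whereas its paralog Itpr1 averaged 274 ± 55.8 TPM at 8 weeks and 187 ± 21.6 TPM at 3 weeks (0.54, limma adjusted p = 2.25e-04). Gna11 was lower (-0.15, limma adjusted p = 6.93e-05). Of alpha-2 coupling, 1 of 8 was higher, Gnai2 at 0.12, and 3 were lower, Gnaz at -0.22, Gnai3 at -0.20 and Gnao1 at -0.14. Of beta coupling, 1 of 16 was higher and 7 were lower, led by Prkaca at -0.21, Prkar2b at -0.23, Pde4a at -0.14 and Prkacb at -0.28. Of the regulators, Rgs8 was higher (0.26) and Grk6 (-0.17), Rgs4 (-0.35) and Rgs7 (-0.12) were lower, of 11. Of 19 other amine receptors, Hrh1 was higher (0.18) and 6 were lower, among them Chrm1 (-0.22), Htr2c (-0.28) and Drd5 (-0.205). The lists had no test of their own, and these counts stand beside 15.5% of all genes called higher and 26.6% called lower.

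Genes whose levels followed those of a receptor most closely were found by Pearson correlation of log2(TPM + 1) over the 35 libraries after subtraction of each cohort mean, and are given as a description. The libraries share depth scaling, tissue make-up and the group differences themselves. For Adra1b they were Ddn (r = 0.933), which encodes the dendritic protein dendrin, the kinase gene Brsk1 (0.933) and the phosphoinositide kinase gene Pip4k2b (0.929). After subtraction of each group mean the same genes had r = 0.586, 0.737 and 0.785. For Adra1a they were Abl2 (0.860), Scaf8 (0.842) and Ppargc1a (0.838), and these were higher after subtraction of group means (0.927, 0.868 and 0.872). For Adra1d they were Gda (0.889), Mpped1 (0.882) and Enc1 (0.871). For Adra2a they were Ppa2 (0.756), Inhbb (0.738) and Vit (0.712). For Adra2c they were Rprml (0.818), Sst, the interneuron peptide somatostatin (0.804), and Bok (0.784). For Adrb1 the closest gene was another member, Adra1d (0.804), followed by Tmem121b (0.777) and Kcnv1 (0.770). The other correlations among the 6 receptors lay at or under 0.546, the value for Adra1b with Adra2a, which was 0.026 after subtraction of group means. Other pairs were higher after that subtraction: Adra1b had r = 0.628 with Adra1d, against 0.305 before it, 0.603 with Adra1a, against 0.430, and 0.546 with Adrb1, against 0.372.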

How the data were processed

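The authors deposited 1 table of TPM, with 2 decimals, for 35 libraries. The submitters' processing notes name the build mm10 and the tools STAR 2.7.1a, RSEM, Trim Galore and GATK 4.0.4.0, while the annotation is not given in the sources used here. TPM keeps no read depth, so no count test was possible, and a change in a few abundant genes shifts all others. Values were taken as log2(TPM + 1), genes averaging 1 TPM or more were kept, and limma 3.58.1 was run under R 4.3.3 (eBayes with a trend, two-sided). Benjamini-Hochberg adjustment ran over all genes of a comparison, with calls made at an adjusted p under 0.05. One model of all 35 libraries, with a mean for each of the 12 groups, gave the averages (cohorts weighted equally), the age effect and the contrasts of effects. Values within a cohort came from that cohort alone. Fold changes of low genes are understated by the pseudocount of 1. Adra2b, under the minimum, was tested by two-sided exact permutation within cohorts, or within genotype and ASO for age. The permutation test was also run for the other receptors, beside limma. WT libraries at 3 weeks were placed in a cohort by the number series in their titles, which the labels do not spell out. The labels do not say that each library is a separate animal, so p-values measure the spread between libraries. The members, lists and tests were chosen with earlier results known from these data. Named are the members, called list members (up to 4 per list with the smallest p) and, for each tested receptor, the 3 genes most correlated with it. A few called list members are not reported here. Gene coordinates are from RefSeq on GRCm38. The limma steps were tested on simulated data. Alternatives were other pseudocounts (0.1 and 0.5), filters on low values, rescaled values, a replicate block, a cerebellar covariate, fits without the variance trend or of the compared groups alone, and leaving out each library in turn.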

Additional observations from a re-analysis of the deposited data

How the results depend on the processing

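Under 44 alternatives, the lower Adra1b (-0.44 to -0.35) and Adra2a (-0.36 to -0.29) at 8 weeks kept their calls. Adra1b between ASOs in mutants, given with no test, lay between -0.65 and -0.57, and every alternative rests on mutant control libraries used in its choice. The number of receptors called with age was 2, and leaving out 1 library gave 2 to 4. Within single cohorts, the only receptor to reach the threshold between ASOs was Adra1b in mutants, which its choice favours. In which cohorts it did so, if any, changed with the library left out, the replicate block and the cerebellar covariate. Nothing is read from these calls. The 5 receptors called between the WT libraries of the 2 cohorts at 3 weeks became 0 with that covariate, where Adra2a (-0.012) and Adrb1 (0.019) changed sign and Adra1a stayed at -0.51 (SE 0.23, against 0.135 without it). Uncalled values that changed sign were Adra1d in mutants against WT with the Hnrnph2 ASO (-0.025) and Adrb1 between ASOs in WT (-0.009) with the covariate, as did the untested Adra1d (-0.11) and Adrb1 (-0.039) between mutants and WT with the control ASO. On leaving out 1 library, so did Adra2a (-0.012 to 0.060) and Adrb1 (-0.002 to 0.10) between ASOs in WT and Adra2c between ASOs in mutants (-0.010 to 0.054). Replicate numbers did not pair libraries: in 0 of 12 comparisons did every pair of same-numbered deviations correlate over 0.1 (r between -0.197 and 0.22). With the number as a replicate block, the value of Adra1b between ASOs in mutants was -0.61, and no call of a receptor in an average over cohorts or with age changed. Over all genes the covariate lowered the calls between mutants and WT with the control ASO to 315, against 708, and the compared groups alone gave 23 calls with the Hnrnph2 ASO, against 111. The block gave 53 in WT between ASOs, against 31. Leaving out 1 library moved the 111 by over 1.5 times for 13 of 35 libraries, from 21 without replicate 2 of P209L with the Hnrnph2 ASO at 3 weeks to 303 without replicate 3 of WT with the Hnrnph2 ASO in that cohort. Without that P209L library 1.26% of genes were called between ASOs in mutants, against 2.5%. Without replicate 3 of WT with the control ASO at 8 weeks, 1164 genes were called between mutants and WT with the control ASO, against 708. Between the WT libraries of the 2 cohorts at 3 weeks, the 4482 calls were 2685 without replicate 2 of WT with the control ASO in the R206W cohort and 2979 without replicate 1 of that group in the P209L cohort. The causes were not tested. Without read depth, the precision of Adra2b cannot be given.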
